A study of Mus musculus with 6 samples.

Results

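Ezr, Rdx and Msn encode ezrin, radixin and moesin, the 3 proteins of the ERM family. They were taken from the deposited expression table by gene name, each name matched 1 row, and they are 3 of its 55401 genes. The family was chosen by its measured FPKM in the L-OHP+FUC against the L-OHP libraries, so that contrast is described for its members and not tested. The cells were macrophages grown from mouse bone marrow in medium holding L929 culture supernatant, and their RNA was measured by sequencing of total RNA after removal of ribosomal RNA. In the L-OHP+FUC group, 3 samples received a 12 h dose of 250 µg/ml fucoidan, which is a seaweed polysaccharide rich in sulfated fucose, and then 5 µM L-OHP (oxaliplatin, a platinum drug) for 12 h. In the L-OHP group, 3 samples received the same drug dose for 12 h without fucoidan. Both groups carry the drug, all cells had been cultured for 7 days, and untreated macrophages were not analysed here. The labels give no mouse strain, sex or age, and do not say that replicates came from separate animals or cultures, so the spread between replicates, which is all that the p-values measure, may be technical.

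ERM proteins tie the actin filaments of the cell cortex to the plasma membrane. Their amino-terminal FERM domain binds the lipid PIP2 and the tails of membrane proteins, and their carboxy-terminal tail binds actin. At rest the ends of the protein mask each other, and PIP2 binding followed by phosphorylation of a conserved threonine opens it. Moesin is known as the leading ERM protein of leukocytes, ezrin as the one of epithelial microvilli, and radixin as the one of liver bile canaliculi. In macrophages ERM proteins take part in the shaping of ruffles and in the cortex around forming phagosomes.

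The genes lie apart in the genome. On build mm10, Ezr spans 6738041 to 6782784 of chromosome 17 on the minus strand, Rdx spans 52047173 to 52088735 of chromosome 9 on the plus strand and Msn spans 96096042 to 96168552 of chromosome X on the plus strand, per GENCODE M21. Their longest transcripts hold 3164 bases in 13 exons for Ezr, 4380 bases in 14 exons for Rdx and 3842 bases in 13 exons for Msn. Coding sequences were 73.8% identical over aligned bases between Ezr and Msn, 72.0% between Rdx and Msn and 70.5% between Ezr and Rdx. No alignment of at least 100 bases to another gene's transcript in that annotation averaged 90% identity or more. Stretches inside longer alignments were not searched apart, so this search cannot exclude reads shared between genes. Ezr overlaps the end of Sytl3 on the opposite strand by 4 bases, and Sytl3 stayed under 0.03 FPKM in all 6 libraries. Msn holds the small RNA gene Gm24718 on the opposite strand, which was listed at 0 in all 6.

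Start regions are shown to let the members be compared at their promoters. Each stretch has 300 bases, from 250 before to 50 after an annotated gene start (RefSeq, build GRCm38.p6), and runs 5′ to 3′ on the strand of the gene. Capitals mark matches to the AP-1 motif TGANTCA in Ezr, to the NF-kB site in Rdx and to the E-box CACGTG in Msn. The Ezr stretch is chr17:6782731-6783030 (minus strand), the Rdx stretch is chr9:52047691-52047990 (plus strand) and the Msn stretch is chrX:96095795-96096094 (plus strand).
Ezr: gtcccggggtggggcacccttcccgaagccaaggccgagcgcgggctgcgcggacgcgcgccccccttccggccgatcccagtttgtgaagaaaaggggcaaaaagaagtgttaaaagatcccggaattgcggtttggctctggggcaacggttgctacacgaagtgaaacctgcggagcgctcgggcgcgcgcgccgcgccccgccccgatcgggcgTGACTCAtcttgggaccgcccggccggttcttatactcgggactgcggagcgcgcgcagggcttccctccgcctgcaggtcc
Rdx: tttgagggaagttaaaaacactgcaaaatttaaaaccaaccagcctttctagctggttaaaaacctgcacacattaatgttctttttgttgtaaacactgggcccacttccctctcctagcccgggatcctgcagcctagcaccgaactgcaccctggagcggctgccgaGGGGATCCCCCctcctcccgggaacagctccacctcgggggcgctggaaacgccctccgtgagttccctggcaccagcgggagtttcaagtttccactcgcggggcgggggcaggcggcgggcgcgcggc
Msn: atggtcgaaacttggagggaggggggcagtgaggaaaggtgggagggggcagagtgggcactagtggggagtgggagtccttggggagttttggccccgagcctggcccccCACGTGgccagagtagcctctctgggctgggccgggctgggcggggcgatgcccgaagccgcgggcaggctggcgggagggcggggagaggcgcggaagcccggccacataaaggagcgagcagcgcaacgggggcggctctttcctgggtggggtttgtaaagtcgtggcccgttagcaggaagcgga
In the stretches printed here, the share of G and C bases was 68.0% in Ezr, 59.3% in Rdx and 69.0% in Msn, against a median of 52.7% over 32851 promoters of the same length. CpG pairs numbered 38 in Ezr, 18 in Rdx and 21 in Msn, against a median of 7. The AP-1 match begins 32 bases upstream of the Ezr start and was the only match to that motif among the members' windows, while 7.81% of all promoters hold one. The E-box begins 139 bases upstream in Msn, and 7.15% of promoters hold one. The capitals in Rdx hold overlapping matches to the NF-kB site, which 8.46% of promoters hold. The antioxidant response element TGACNNNGC (12.4% of promoters), the cAMP response element TGACGTCA (1.79%) and the CArG box of SRF (1.63%) had no match in these windows. The GC box GGGCGG, left in lower case and present in 35.7% of promoters, matched 2 times in Ezr, 1 time in Rdx and 3 times in Msn. Both strands were searched, and a match is a run of letters only. A further Rdx window, at 52046900 to 52047199, held none of these motifs. It had 46.3% G and C bases and 3 CpG pairs, both below the medians. The GENCODE start of Rdx, at 52047173, lies in this further window and not in the printed one.

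Values are FPKM, that is fragments scaled by transcript length and library depth, as deposited. Steps between low values implied 15.7 to 18.6 M (mega) fragments per library, and from this each member stood on at least 733 fragments in every library. Genes at 1 FPKM or more numbered 9841 to 10188 in the L-OHP+FUC libraries and 10711 to 10813 in the L-OHP libraries. All 9 macrophage markers were expressed, with a summed level of 13619 to 14610 FPKM with L-OHP+FUC and of 12656 to 18015 FPKM with L-OHP, most of it Lyz2. Single macrophage markers went both ways without overlap of the groups. Mertk, Fcgr1 and Adgre1 were lower, with means of 29.9, 89.0 and 646 FPKM with L-OHP+FUC and 50.5, 146 and 777 FPKM with L-OHP. Csf1r and Cd14 were higher, with means of 578 and 294 FPKM with L-OHP+FUC and 418 and 203 FPKM with L-OHP. The 4 T cell markers were listed at 0, and the neutrophil markers Ly6g and Retnlg were too. The 4 epithelial markers, from cells in which ezrin is abundant, summed to 0.271 to 0.508 FPKM with L-OHP+FUC and to 0 to 0.859 FPKM with L-OHP. The 8 neutrophil markers summed to 5.345 to 6.10 FPKM with L-OHP+FUC and to 3.32 to 4.26 FPKM with L-OHP, mostly S100a8. The 4 endothelial markers summed to 1.47 to 1.62 FPKM with L-OHP+FUC and to 2.525 to 3.00 FPKM with L-OHP, mostly Kdr. The 4 fibroblast markers, 3 of them at 1 FPKM or more, summed to 5.93 to 6.08 FPKM with L-OHP+FUC and to 4.03 to 9.68 FPKM with L-OHP. Their part in the results was not tested. In such bulk samples, fewer cells of a type and less RNA per cell cannot be told apart.

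Fucoidan before the drug went with more Ezr mRNA, slightly more Msn mRNA and less Rdx mRNA. After a correction for G and C content and transcript length, the Rdx difference shrank and was smaller in size than that of Msn. Log2 differences are L-OHP+FUC minus L-OHP on the log2(FPKM + 1) scale, which understates low genes.

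Ezr stood at 37.4, 38.9 and 39.1 FPKM across L-OHP+FUC replicates 1 to 3, against 14.1, 14.45 and 15.1 FPKM in L-OHP replicates 1 to 3. Every L-OHP+FUC library was above every L-OHP library, and within each group the libraries lay close together. The mean was 38.5 ± 0.962 FPKM with L-OHP+FUC and 14.5 ± 0.519 FPKM with L-OHP (SD, n = 3 each), a ratio of means of 2.65. Pairs of 1 library from each group differed between 2.475-fold and 2.78-fold. The log2 difference was 1.35 (SE 0.08), the 29th highest among 12084 tested genes.

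Msn, the family member that leukocytes carry most of, stood at 308, 323 and 315 FPKM across L-OHP+FUC replicates 1 to 3, against 285, 261 and 251 FPKM in L-OHP replicates 1 to 3. The groups did not overlap, and the closest pair of libraries differed 1.08-fold. The mean was 315 ± 7.36 FPKM with L-OHP+FUC and 266 ± 17.5 FPKM with L-OHP (SD, n = 3 each), and the log2 difference was 0.25 (SE 0.09). The difference of means was 49.4 FPKM for Msn and 23.9 FPKM for Ezr, so the smaller ratio of Msn was the larger step in FPKM.

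Rdx stood at 9.88, 11.3 and 13.25 FPKM across L-OHP+FUC replicates 1 to 3, against 14.4, 14.1 and 16.9 FPKM in L-OHP replicates 1 to 3. The groups did not overlap, but L-OHP+FUC replicate 3 came close to L-OHP replicate 2, at 0.942 of its level. The mean was 11.5 ± 1.69 FPKM with L-OHP+FUC and 15.1 ± 1.55 FPKM with L-OHP (SD, n = 3 each), with a log2 difference of -0.38 (SE 0.13). Rdx was thus the member with the widest relative spread, a coefficient of variation of 14.8% with L-OHP+FUC and 10.2% with L-OHP, against 2.501% with L-OHP+FUC and 3.57% with L-OHP for Ezr. The groups failed to overlap in 3 of 3 members, while 47% of all tested genes had groups that did not overlap, 16.1% with L-OHP+FUC higher and 30.9% with it lower. The authors' deposited table gives ratios of mean FPKM of 2.65 for Ezr, 1.19 for Msn and 0.758 for Rdx.

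**Figure D1:**
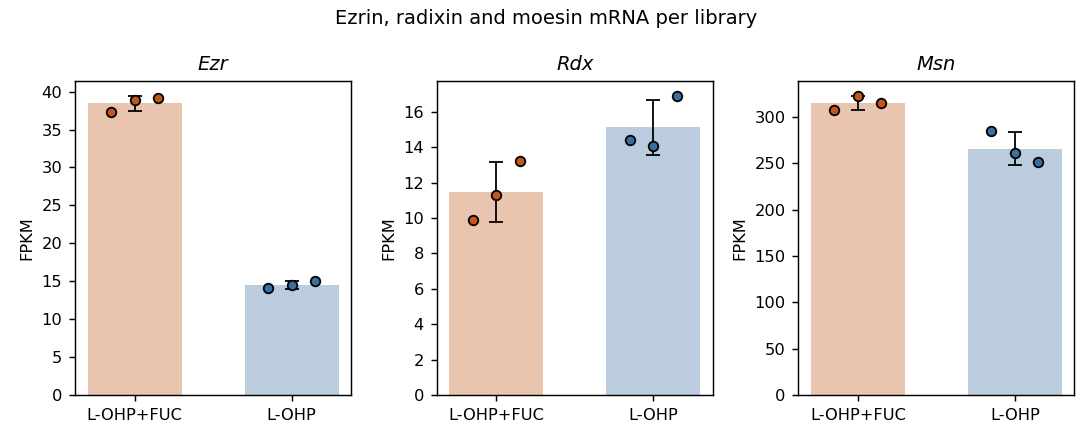
FPKM of Ezr, Rdx and Msn (vertical axes from 0, each gene on its own scale) in L-OHP+FUC on the left and L-OHP on the right; points are libraries, bars are means and whiskers are SD (n = 3 each). Ezr libraries sit at 37.4 to 39.1 against 14.1 to 15.1 FPKM, and the Rdx and Msn groups lie much closer to each other.

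Base composition moved with these values, and its part in them was not tested beyond 1 correction. Rdx, at 44.1% G and C, is the poorest of the family in these bases. The 1169 other tested genes within 1 percentage point of its G and C share had a median log2 difference of -0.23, against -0.38 for Rdx. For Msn, at 47.7%, the same median was -0.15 over 1329 genes, and for Ezr, at 52.8%, it was -0.02 over 1247 genes. After a correction for G and C content and transcript length, the log2 difference was 1.29 for Ezr (SE 0.07), 0.36 for Msn (SE 0.09) and -0.16 for Rdx (SE 0.09). The Rdx value thus shrank from -0.38 to -0.16, and all 3 kept their sign. This correction also recentred each library, and the median over all tested genes went from -0.10 to 0.01. Median ratio rescaling, which uses no G and C content, gave 1.47 for Ezr, 0.37 for Msn and -0.26 for Rdx. The parts of composition, length and recentring in these moves were not tested apart.

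**Figure D2:**
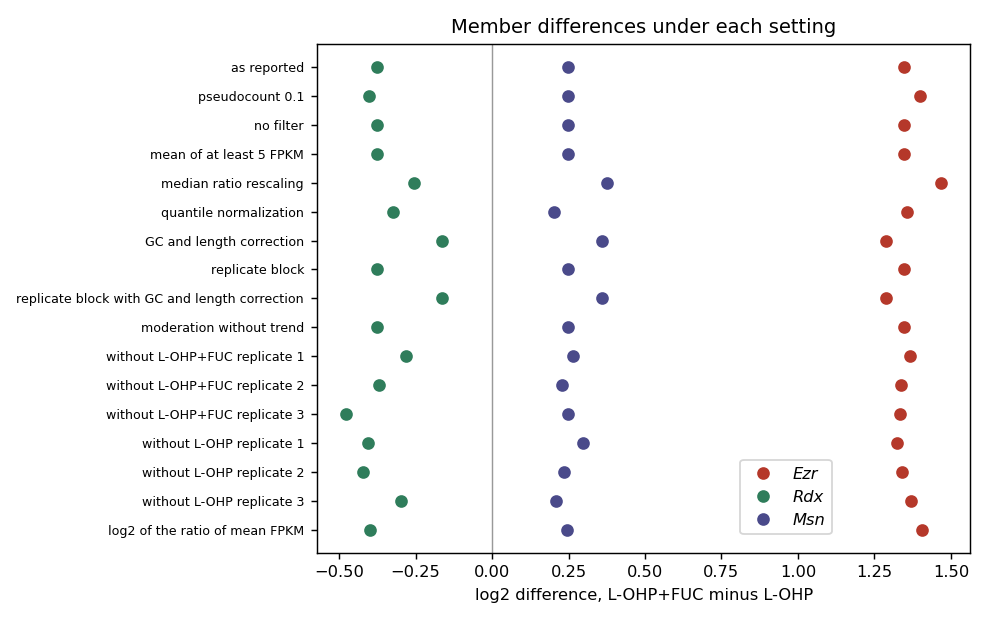
Log2 difference, L-OHP+FUC minus L-OHP (horizontal axis), of Ezr, Rdx and Msn under each setting (rows), including the 6 fits that leave out 1 library. Ezr stays between 1.29 and 1.47, Msn between 0.20 and 0.37 and Rdx between -0.48 and -0.16.

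The depth behind the members differs widely. These fragment numbers are estimates from the implied depths and the longest transcripts. Ezr rested on about 2178, 1930 and 2039 fragments with L-OHP+FUC and 733, 850 and 784 with L-OHP. Rdx rested on about 797, 774 and 956 fragments with L-OHP+FUC and 1040, 1147 and 1216 with L-OHP. Msn rested on 19430 to 21797 fragments with L-OHP+FUC and 15844 to 18647 with L-OHP. In the order of all 12084 log2 differences, Msn came 1963rd from the highest and Rdx 3037th from the lowest, so both lay well inside the range of the table.

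Since FPKM is per length, the members can be set side by side within a library, with a limit. Scaling by length does not remove a bias from G and C content between genes. The correction above acts on each gene's deviations from its own mean, so it cannot remove such a bias either. With L-OHP+FUC the order was Msn, Ezr, Rdx, and no library of 1 gene reached the range of another. With L-OHP Msn again led, whereas Ezr (14.1 to 15.1 FPKM) and Rdx (14.1 to 16.9 FPKM) overlapped and had no order beyond their spread. The level of Ezr over that of Rdx was 2.95 to 3.78 in L-OHP+FUC libraries and 0.893 to 1.03 in L-OHP libraries. The level of Msn over that of Ezr was 8.05 to 8.29 in L-OHP+FUC libraries and 16.6 to 20.3 in L-OHP libraries. The level of Msn over that of Rdx was 23.8 to 31.2 in L-OHP+FUC libraries and 14.9 to 19.8 in L-OHP libraries. None of these 3 ratios overlapped between the groups, which for the ratios over Rdx follows from the separation of the members themselves. Among tested genes of the same library, Msn lay at the 98.9th to 99.2nd percentile throughout. Ezr lay at the 90.4th to 91.0th percentile with L-OHP+FUC and at the 76.4th to 78.4th with L-OHP, and Rdx at the 70.1st to 75.5th with L-OHP+FUC and at the 75.8th to 80.4th with L-OHP.

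The summed level of the family was 355, 373 and 367 FPKM with L-OHP+FUC and 314, 289.5 and 283 FPKM with L-OHP. Msn made up 86.3% ± 0.514 of this sum with L-OHP+FUC and 89.9% ± 1.13 with L-OHP (SD, n = 3 each). The share of Ezr was 10.5% ± 0.109 with L-OHP+FUC and 4.94% ± 0.426 with L-OHP. The share of Rdx was 3.14% ± 0.425 with L-OHP+FUC and 5.14% ± 0.730 with L-OHP. Moesin mRNA was the bulk of the family in every library, and the place next to it was held by Ezr in the L-OHP+FUC libraries and by Rdx in L-OHP replicates 1 and 3 and Ezr in L-OHP replicate 2.

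**Figure D3:**
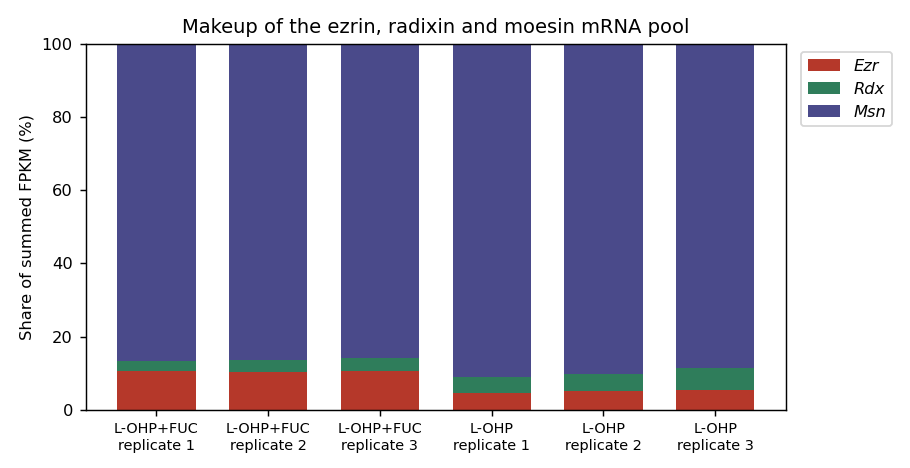
Share of the summed FPKM of the 3 genes (vertical axis, %) held by Ezr, Rdx and Msn in each library, L-OHP+FUC on the left. Ezr holds 10.4% to 10.65% of the sum in L-OHP+FUC libraries and 4.49% to 5.33% in L-OHP libraries.

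Around the family, 12084 genes were tested with limma, and 3262 (27%) passed an adjusted p of 0.05, 927 (7.67%) higher and 2335 (19.3%) lower in L-OHP+FUC, with a median log2 difference of -0.10 over all tested genes. Of the calls 28.4% were higher, and this split moved to 48.5% after median ratio rescaling, 53.5% after quantile normalization and 49.2% after the correction for G and C content and length. The median of all genes was then -0.01, 0.03 and 0.01. Below, the G and C correction is short for the correction for both G and C content and length. Of 69 listed regulators and partners of ERM proteins, 58 passed the filter on low values, 5 rose, 8 fell and 45 did not pass the test, with a median log2 difference of 0.08. These shares, 8.62% higher and 13.8% lower, lie beside 7.67% and 19.3% over all tested genes. The count of higher genes was 13 after median ratio rescaling, 10 after quantile normalization or the G and C correction, and 0 without L-OHP+FUC replicate 1, L-OHP+FUC replicate 2 or L-OHP replicate 1. The count of lower genes was 3, 2 and 4 without these libraries, and 2 higher and 5 lower genes were counted without L-OHP replicate 3. Without L-OHP replicate 2, 8 higher genes were counted.

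Of 13 kinases known to phosphorylate the threonine that opens ERM proteins, or to act on the family, 9 were tested, 1 rose and 3 fell (11.1% higher and 33.3% lower, beside 7.67% and 19.3% of all tested genes; median log2 difference -0.04). Rock1, a kinase of the actin and myosin cortex, stood at 0.578, 1.499 and 2.01 FPKM with L-OHP+FUC and at 4.43, 4.20 and 4.72 FPKM with L-OHP, and the groups lay far apart (log2 fold change -1.26, SE 0.23, limma adjusted p = 0.01235). Its relative Rock2 stood at 0.751, 1.71 and 2.39 FPKM with L-OHP+FUC and at 4.37, 4.27 and 5.55 FPKM with L-OHP (log2 fold change -1.18, limma adjusted p = 0.0166). Slk stood at 5.23, 6.55 and 9.56 FPKM with L-OHP+FUC and at 12.3, 13.0 and 15.6 FPKM with L-OHP (log2 fold change -0.88, limma adjusted p = 0.0215). In all 3, L-OHP+FUC replicate 1 was the lowest library. Rock2 no longer passed once L-OHP+FUC replicate 2 was left out (adjusted p = 0.0529), and Slk failed the test without L-OHP+FUC replicate 1 or 2 or L-OHP replicate 1 or 3 (adjusted p = 0.0532 to 0.0751) and with no filter on low values (0.0581). Their transcripts are poor in G and C (40.2%, 41.4% and 45.3%), and genes of like composition had median log2 differences of -0.35, -0.31 and -0.19. After the G and C correction the log2 fold changes of Rock1, Rock2 and Slk were smaller, at -0.84, -0.75 and -0.58, and all 3 remained called (limma adjusted p = 0.0170, 0.0246 and 0.0332). That correction also covers length, and these transcripts hold 6440, 7644 and 7278 bases. Median ratio rescaling gave -1.17, -1.09 and -0.76. The parts of composition, length and recentring were not tested apart. Stk10, the close relative of Slk that is prominent in lymphocytes, averaged 16.1 ± 0.638 FPKM with L-OHP+FUC and 14.7 ± 2.02 FPKM with L-OHP (limma adjusted p = 0.399), and Map4k4 averaged 9.31 ± 1.59 FPKM with L-OHP+FUC and 9.59 ± 1.60 FPKM with L-OHP (limma adjusted p = 0.873; SD, n = 3 each). Akt2, an insulin-pathway kinase, rose (log2 fold change 0.40, limma adjusted p = 0.0212), but not without L-OHP+FUC replicate 1 or 2 or L-OHP replicate 1 (adjusted p = 0.0699 to 0.0828).

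On the side of the phosphatases, 6 of 6 listed genes were tested and 1 fell (16.7%, beside 19.3% of all tested genes; median log2 difference 0.26). It was Ppp1r12a, the subunit that directs protein phosphatase 1 to myosin and moesin, at 7.00 ± 2.61 FPKM with L-OHP+FUC and 12.4 ± 1.55 FPKM with L-OHP (SD, n = 3 each; limma adjusted p = 0.0418). It lost its call without any library except L-OHP+FUC replicate 3 (adjusted p = 0.0541 to 0.128), with no filter on low values (0.1003) and after the G and C correction (0.107), median ratio rescaling (0.0571) or quantile normalization (0.0558). Of 10 genes that make or remove PIP2, 9 were tested, 1 rose and 1 fell (11.1% each, beside 7.67% higher and 19.3% lower of all tested genes; median log2 difference -0.03). Pip5k1c, which makes PIP2, rose to 77.98 ± 5.35 FPKM with L-OHP+FUC, against 57.98 ± 5.26 FPKM with L-OHP (SD, n = 3 each; limma adjusted p = 0.0255). Its relative Pip5k1a stood at 8.67 ± 0.232 FPKM with L-OHP+FUC and 8.01 ± 0.2196 FPKM with L-OHP (limma adjusted p = 0.351), and Synj1, a phosphatase that removes PIP2, fell (log2 fold change -0.49, limma adjusted p = 0.0195). The calls of Pip5k1c and Synj1 ended without L-OHP+FUC replicate 1 or 2 or L-OHP replicate 1 or 3 (adjusted p = 0.0633 to 0.0893 and 0.0526 to 0.0771), and that of Synj1 also after the G and C correction (0.0834).

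Of 16 membrane proteins whose tails bind ERM proteins, 13 were tested, none rose and 2 fell (15.4%, beside 19.3% of all tested genes; median log2 difference 0.04). Cd93, which moesin binds, fell to 26.7 ± 3.11 FPKM with L-OHP+FUC, against 41.1 ± 4.65 FPKM with L-OHP (SD, n = 3 each; limma adjusted p = 0.0165), but not without L-OHP+FUC replicate 1 or 2 (adjusted p = 0.0624 and 0.0659). The adhesion receptor Vcam1 fell (log2 fold change -0.41, limma adjusted p = 0.0261), and lost its call after the G and C correction (0.650), median ratio rescaling (0.0698) or quantile normalization (0.0706), and without L-OHP replicate 1 or any L-OHP+FUC library (0.0544 to 0.0982). The main leukocyte partners did not pass. Cd44, the hyaluronan receptor, averaged 29.3 ± 4.75 FPKM with L-OHP+FUC and 26.2 ± 1.81 FPKM with L-OHP (limma adjusted p = 0.458, and 0.0365 after the G and C correction), and the sialomucin Spn averaged 9.995 ± 0.469 FPKM with L-OHP+FUC and 9.33 ± 2.74 FPKM with L-OHP (limma adjusted p = 0.660). The selectin ligand Selplg averaged 33.3 ± 1.98 FPKM with L-OHP+FUC and 32.3 ± 2.65 FPKM with L-OHP (limma adjusted p = 0.764). Icam1 averaged 139.5 ± 12.5 FPKM with L-OHP+FUC and 107 ± 33.9 FPKM with L-OHP (limma adjusted p = 0.185), and leaving out L-OHP replicate 2 made it a higher call (0.0238). Of 10 scaffolds and cytosolic partners, 8 were tested, none rose and 1 fell (12.5%, beside 19.3% of all tested genes; median log2 difference -0.03), namely Tsc1, which fell to 2.83 ± 0.302 FPKM with L-OHP+FUC, against 5.14 ± 0.423 FPKM with L-OHP (SD, n = 3 each; limma adjusted p = 0.00847). Slc9a3r1, the scaffold that links the ezrin FERM domain to membrane transporters, averaged 52.0 ± 3.34 FPKM with L-OHP+FUC and 50.9 ± 4.94 FPKM with L-OHP (limma adjusted p = 0.831).

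Other proteins with a FERM domain numbered 49, of which 22 did not pass the filter. Of the 27 tested, 4 rose, 3 fell and 20 did not pass, with a median log2 difference of -0.02. These are 14.8% higher and 11.1% lower, beside 7.67% and 19.3% of all tested genes. Nf2, which encodes merlin, the nearest relative of the ERM proteins, averaged 10.4 ± 0.656 FPKM with L-OHP+FUC and 8.70 ± 0.854 FPKM with L-OHP (SD, n = 3 each; limma adjusted p = 0.118, and 0.0351 after median ratio rescaling). Tln1, the talin that activates integrins, averaged 118 ± 6.81 FPKM with L-OHP+FUC and 91.7 ± 12.4 FPKM with L-OHP (limma adjusted p = 0.06045), and passed as higher after median ratio rescaling (0.0316) or the G and C correction (0.0245) and without L-OHP replicate 2 (0.0179). Krit1, Epb41l2 and Frmd4b fell (log2 fold changes -0.62, -0.52 and -0.49, limma adjusted p = 0.0103, 0.0114 and 0.0122). Krit1 lay near the filter, at 0.494, 0.4345 and 0.688 FPKM with L-OHP+FUC and 1.28, 1.32 and 1.49 FPKM with L-OHP. It passed the filter of 0.5 FPKM mainly through the L-OHP libraries, where it was higher, so its call carries little weight. Krit1 lost its call after the G and C correction (0.138), and Epb41l2 and Frmd4b lost theirs without L-OHP+FUC replicate 2 (0.0501 and 0.0520). The 4 that rose, named after their values were seen, were the kindlin Fermt3, the sorting nexins Snx17 and Snx27, and Plekhh3 (log2 fold changes 0.54, 0.41, 0.36 and 0.37, limma adjusted p = 0.0352, 0.0167, 0.0464 and 0.0411). The count of higher genes was 9 after median ratio rescaling, and Fermt3 and Plekhh3 lost their calls after the G and C correction (limma adjusted p = 0.0644 and 0.381). Fermt3, Snx27 and Plekhh3 did so with no filter on low values (0.0785, 0.07965 and 0.0959), and Snx27 also after quantile normalization (0.0607) or without the intensity trend (0.0518). None of the 4 passed without L-OHP+FUC replicate 1 or 2 or L-OHP replicate 1 (count of 0 higher in each of these fits), and 1 higher gene was counted without L-OHP+FUC replicate 3. The count of lower genes was 1 without L-OHP+FUC replicate 2.

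The actin cortex, to which ERM proteins bind, was represented by 20 genes, all tested, of which 4 (20%) rose and 16 showed no call, with no gene that fell and a median log2 difference of 0.25. Over all tested genes 7.67% were higher and 19.3% lower, with a median of -0.10, and the count of higher genes there was 1581 after median ratio rescaling, against 927 as reported. Actg1, a cytoplasmic actin, stood at 984, 899 and 895 FPKM with L-OHP+FUC and at 511, 480 and 559 FPKM with L-OHP, with no overlap (log2 fold change 0.84, SE 0.11, limma adjusted p = 0.00632). Actb, the other cytoplasmic actin, stood at 895, 730 and 729 FPKM with L-OHP+FUC and at 794, 911 and 606 FPKM with L-OHP, and the groups overlapped (limma adjusted p = 0.887). As background, the actins are near-identical paralogs, and how their shared reads were divided in the deposited values is uncertain; no copy search was run for them. Flna, a filamin that cross-links actin, rose to 279 ± 12.9 FPKM with L-OHP+FUC, against 170 ± 7.81 FPKM with L-OHP (SD, n = 3 each; log2 fold change 0.71, limma adjusted p = 0.00575). The cross-linker Actn1 rose too (log2 fold change 0.48, limma adjusted p = 0.00990), as did Diaph1, a formin that lengthens actin filaments, named after its values were seen (0.42, limma adjusted p = 0.0323). Diaph1 lost its call without L-OHP replicate 1 or any L-OHP+FUC library (adjusted p = 0.0530 to 0.110) and with no filter on low values (0.0601). Myh9, the heavy chain of non-muscle myosin, averaged 70.5 ± 6.12 FPKM with L-OHP+FUC and 65.4 ± 9.16 FPKM with L-OHP (limma adjusted p = 0.536). The count of higher genes was 7 without L-OHP replicate 2, and 1 lower gene was counted without L-OHP replicate 3.

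**Figure D4:**
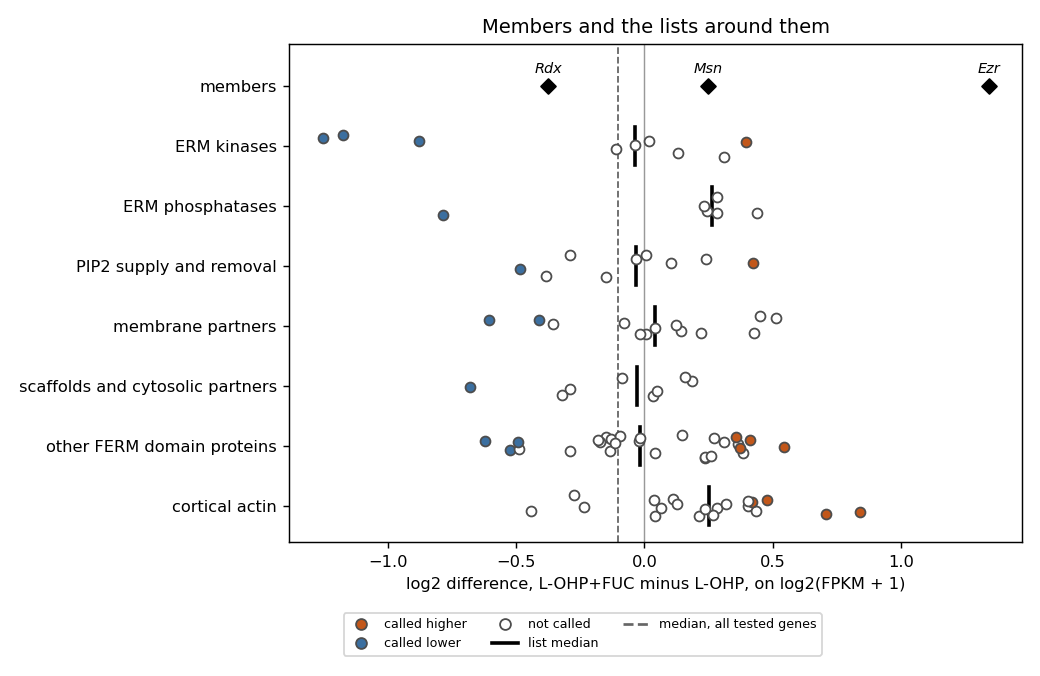
Log2 difference, L-OHP+FUC minus L-OHP (horizontal axis), of Ezr, Rdx and Msn (diamonds) and of the tested genes of 7 lists (points, coloured where called at a limma adjusted p of 0.05, moved apart vertically at random). Black ticks are list medians and the dashed line is the median of all tested genes, -0.10; Ezr, at 1.35, lies to the right of every gene shown.

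The genes whose profiles lay closest to each member were found by the root mean square difference of mean-centred log2(FPKM + 1) values over the 6 libraries. The search covered 5801 tested genes that averaged 5 FPKM or more in either group. Left out were the members and genes with names starting with Gm and a digit or ending in Rik or -ps. Closest to Ezr was Srxn1, which repairs oxidized peroxiredoxins (difference 0.10), followed by the linker histone gene H1f2 (0.11), the acyltransferase Agpat4 (0.12), the transcription factor Ets2 (0.13) and the MAP kinase phosphatase Dusp4 (0.14). Their log2 differences between groups were 1.20 for Srxn1, 1.29 for H1f2, 1.24 for Agpat4, 1.47 for Ets2 and 1.21 for Dusp4, against 1.35 for Ezr. Closest to Rdx were Snap23, Camk1d, Dram2, Cltc and Cpeb2 (0.03 to 0.05), and closest to Msn were Pmpca, Acsl5, Hars, Htatip2 and Sf3b3 (0.02 to 0.03). Small differences are easily matched among so many genes, and the listed genes were chosen for their likeness only.

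**Figure D5:**
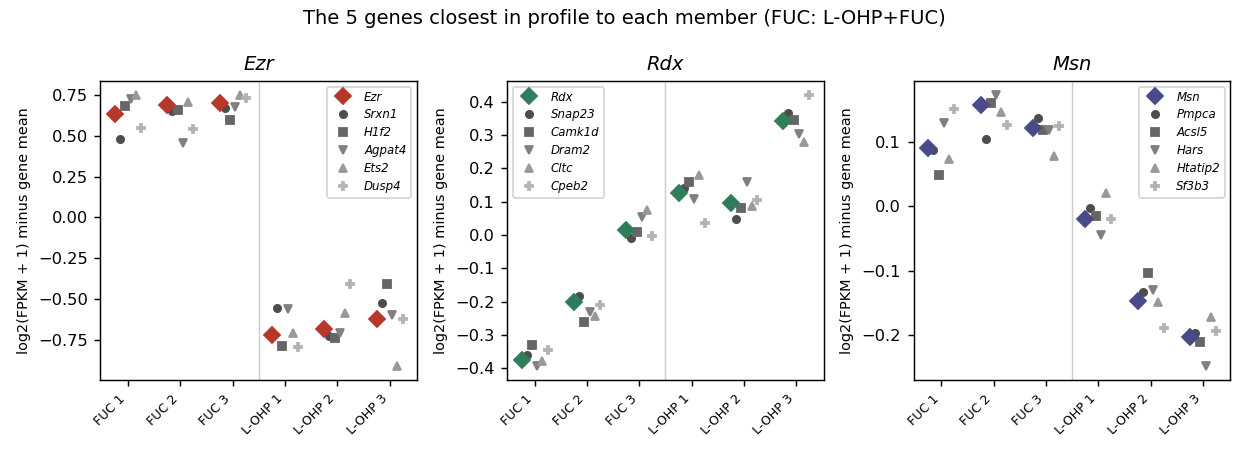
Log2(FPKM + 1) minus the mean of the gene (vertical axes, each panel on its own scale) in each library (horizontal axes, L-OHP+FUC left of the line) for Ezr, Rdx and Msn (diamonds) and the 5 genes closest to each. The 5 genes beside Ezr have log2 differences between groups of 1.20 to 1.47.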

How the data were processed

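Per the file headers, the deposited table gives the authors' FPKM of every gene in 6 libraries. Genes without reads carry 0.0001 there, read as 0 here. The deposited table also holds the authors' ratio of mean FPKM (fold), the log2 of that ratio, and a p-value and q-value per gene, per the file headers; the last were not used. HISAT2, StringTie, DESeq2, limma, bcl2fastq 2.0 and mm10 are named, per the submitters' processing notes, without roles; which annotation release and strand setting they used is not stated in the sources at hand. Depth was estimated from steps between low FPKM of genes with 1 transcript of at least 400 bases; only 39.2% to 44.5% of these values fell within 0.03 of a whole read, and counts could not be recovered from them.

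Log2(FPKM + 1) values were fitted by limma 3.58.1 under R 4.3.3 on group alone, with moderation that follows intensity. P-values were two-sided, adjusted by Benjamini-Hochberg over the 12084 genes that reached 0.5 FPKM in 3 or more of 6 libraries, and called at 0.05; the code was tested on simulated data. The members and lists were chosen with earlier results of these data known. Alternatives were another pseudocount, other filters, rescaling, a loess correction (span 0.3) for G and C content and length, a replicate block, and leaving out each library. The 69 regulators and partners were also counted by role, and 1 of these role groups is not reported here. Named were genes fixed by name, up to 3 called genes with the smallest p in each list, and the 5 closest in profile to each member; those outside are marked in the text. Where a symbol named more than 1 row, the row with the higher mean was used. G and C content came from GENCODE M21, matched by gene ID for 99.5% of rows; copies were searched with BLAST+ 2.17.0 and coding sequences aligned with Biopython 1.88.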

Additional observations from a re-analysis of the deposited data

How the results depend on the processing

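Ezr, Rdx and Msn kept the sign of their log2 differences under all 16 alternatives tried, including those that leave out 1 library. Not all of these could have changed it. The other filters, the replicate block and moderation without the intensity trend leave these differences as they are by construction. The block with the correction repeats the values of the correction alone. Ezr was 1.40 with a pseudocount of 0.1 or as the log2 of the ratio of mean FPKM, 1.47 after median ratio rescaling, 1.29 after the correction for G and C content and length and 1.32 to 1.37 with 1 library left out, against 1.35 as reported. Rdx was -0.26 after median ratio rescaling, -0.16 after the correction and -0.48 to -0.28 with 1 library left out, against -0.38. Msn was 0.37 after median ratio rescaling, 0.36 after the correction and 0.21 to 0.30 with 1 library left out, against 0.25.

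Counts of calls moved more. Over all genes, 927 higher calls became 564 with no filter, 1581 after median ratio rescaling, 1565 after quantile normalization, and 266 to 1121 with 1 library left out. The 2335 lower calls became 1528 with no filter, 966 among genes with a mean of at least 5 FPKM, 1359 after quantile normalization, 1437 after the correction, and 835 to 2256 with 1 library left out. Among regulators and partners, 5 higher calls became 3, 13, 10 and 10 with no filter, median ratio rescaling, quantile normalization and the correction, and 0 to 8 with 1 library left out; 8 lower calls became 5 after the correction and 2 to 10 with 1 library left out. Among other FERM domain genes, 4 higher calls became 1 with no filter, 9 after median ratio rescaling and 0 to 4 with 1 library left out, and 3 lower calls became 1 to 3. Among cortical actin genes, 4 higher calls became 3 to 7, and 0 lower calls became 0 to 1, with 1 library left out.

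The labels number replicates 1 to 3 in both groups without saying that a number marks a shared animal or batch. Deviations of same-numbered libraries correlated at -0.04, -0.07 and 0.08 across genes, and not every library correlated best with its own number, so they were not treated as pairs. With a replicate block, 554 genes were called higher and 1762 lower, with 2 higher calls each among regulators and FERM genes. Among genes named in the text the block ended the calls of Akt2 (limma adjusted p = 0.0542), Pip5k1c (0.0602), Vcam1 (0.0605), Diaph1 (0.06505), Plekhh3 (0.0662) and Snx27 (0.0789). With the block and the correction together, 800 genes were called lower, with 4 lower calls among regulators and 0 among FERM genes, and Ezr, Rdx and Msn stood at 1.29, -0.16 and 0.36. This setting ended the calls of Cd93 (limma adjusted p = 0.0696), Epb41l2 (0.0550), Frmd4b (0.0679), Snx17 (0.0721), Fermt3 (0.09995), Akt2 (0.0748), Pip5k1c (0.0798) and Diaph1 (0.0536). It also ended those of Ppp1r12a (0.094), Synj1 (0.143), Krit1 (0.211), Plekhh3 (0.271) and Vcam1 (0.598), while Tln1 passed as higher (0.0490).

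Of the named list genes, those without a call changed sign in these cases. Map4k4 was 0.077 after median ratio rescaling, 0.056 after quantile normalization, 0.026 after the correction with or without the block, and -0.15 to 0.0765 with 1 library left out. Actb was -0.019 after quantile normalization and -0.12 to 0.17 with 1 library left out. Slc9a3r1 was -0.12 after the correction with or without the block and -0.016 to 0.11 with 1 library left out. Selplg was -0.0042 to 0.11 and Spn -0.10 to 0.30 with 1 library left out. The causes of these moves were not tested. The values are FPKM with no deposited counts used, so the counting error of a single gene is known only from the spread of 3 libraries a group.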
